A study of Mus musculus with 6 samples.

Results

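The response of the transcription factor ATF4 and the metabolism it serves were followed in the newborn mouse lens through 38 genes, of 27179 genes in the deposited table. The genes were taken by symbol from a list of ATF4 targets, serine and one-carbon enzymes, amino acid transporters and tRNA synthetases, and all 38 were found. They fall into 6 regulators, 8 feedback and stress effectors, 7 serine and one-carbon enzymes, 4 other enzymes of amino acid and carbon metabolism, 5 amino acid transporters and 8 tRNA synthetases. Whole lenses of pups on postnatal day 1 (P1) gave 3 Gclc KO and 3 Gclc CON libraries, all of strain B6/FVB. Glutathione synthesis starts with glutamate-cysteine ligase, whose catalytic subunit is the product of Gclc. The labels give the genotypes only as Gclc KO and Gclc CON. They name no Cre driver, no deleted exons, no other allele that CON pups may carry, no sex or litter, and no number of animals per library. They do not say whether the libraries of a group stem from different animals, and the p-values therefore cover the spread among these libraries alone, which may be technical.

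Cells slow protein synthesis under several kinds of stress by phosphorylating the initiation factor eIF2, through kinases that sense unfolded protein, lack of amino acids, lack of haem or double-stranded RNA. The messenger of Atf4 is then translated better, and ATF4 protein, paired with C/EBP-family partners, raises transcription of genes for amino acid synthesis, amino acid uptake and tRNA charging, together with genes that switch the response off or lead to cell death. Serine made from a glycolytic intermediate feeds glycine and one-carbon units, and glycine is one of the amino acids of glutathione. ATF4 is controlled largely at translation, so the level of its own messenger is a poor measure of its activity, and protein was not measured here.

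ATF4 and its C/EBP partners bind a composite element whose core is TGATGNAA. The core was searched on both strands from 250 bases before to 50 bases after each start site in the RefSeq promoter table (GRCm38.p6). Of 29 members with an entry, 7 (24.1%) held it, against 4.51% of the genes in the table and 2.65% of the tested genes. Many of the members were listed as ATF4 targets, so this share describes the list. The narrower core TGATGCAA, which lies within the first, was held by 3 members (10.3%), Nupr1, Vldlr and Iars, against 1.03% of the genes in the table. The windows of all 7 are shown because the list includes ATF4 targets and ATF4 binds this element. Binding at these sites was not measured here. Each is written on the strand of its gene with the core in capitals, TTNCATCA being the core read from the other strand.
Nupr1: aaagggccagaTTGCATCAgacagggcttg
Trib3: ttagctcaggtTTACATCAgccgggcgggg
Vldlr: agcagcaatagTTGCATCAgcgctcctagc
Asns: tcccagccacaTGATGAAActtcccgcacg
Pck2: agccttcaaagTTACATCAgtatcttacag
Gars: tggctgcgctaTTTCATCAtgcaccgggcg
Iars: cactgtcagtaTTGCATCAcctccagacgc
These windows lie in GRCm38.p6 at chr7:126625562-126625591 (- strand) for Nupr1, chr2:152344028-152344057 (- strand) for Trib3, chr19:27216809-27216838 (+ strand) for Vldlr, chr6:7693214-7693243 (- strand) for Asns, chr14:55540152-55540181 (+ strand) for Pck2, chr6:55037960-55037989 (+ strand) for Gars and chr13:49682126-49682155 (+ strand) for Iars. The core starts 15 bases after the start site of Trib3 and 8 bases after that of Iars, and lies before the start site in the other 5. Among these 7 genes the KO lenses had 1 call, Trib3, which was higher than in CON. Of the 7 members that passed the test described below, 4 had an entry, and 1 of these, Trib3, held the core. No match says only that these letters are not in this window. The members without an entry are Eif4ebp1, Aldh1l2, Slc7a3, Slc7a5, Slc38a3, Cars, Nars, Wars and Lars.

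Values below are normalised reads, the number of reads of a gene divided by the size factor of its library, listed for replicates 1, 2 and 3 in that order. Log2 differences are KO minus CON and refer to the variance-stabilised values of the table. That scale shrinks the differences of genes with few reads. Adjusted p-values come from limma over 11468 tested genes with Benjamini-Hochberg adjustment, and a gene was called at an adjusted p under 0.05. Libraries held 45842484 to 61219009 reads in genes in KO and 20361430 to 43384443 in CON. The targeted gene Gclc had 17.9, 72.1 and 58.1 normalised reads in the 3 KO libraries, against 178, 283 and 173 in the CON libraries, a difference of -1.01 (SE 0.28, adjusted p = 0.0387), and KO libraries still held reads of it. All 12 lens fibre markers were lower in KO, the 16 crystallin genes took 44.9% ± 3.82 of the reads in KO and 64.7% ± 4.60 in CON (SD, n = 3 each), and 11 of 15 tested macrophage markers were higher. In whole lenses, fewer cells of a type and less RNA per cell cannot be told apart. With total reads as the library size, in place of size factors, the median difference of all tested genes stood at 0.86, against 0.031 in the reported fit, so differences shift towards KO under that scaling.

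Of the 38 members, 35 passed the filter on low values and 7 of these were called, 4 higher and 3 lower in KO. The higher ones were Ddit3, Trib3, Gdf15 and Slc7a3, and the lower ones Phgdh, Slc7a5 and Slc38a3. The calls came to 20% of the tested members, against 11.3% of all tested genes (6.91% higher and 4.39% lower). The members were chosen with earlier results of these data known, so this share describes the list alone. Trib3, Gdf15 and Slc7a3 passed the filter through KO alone, their CON means lying under it, so that they could enter the test only by being higher in KO. All KO libraries lay above all CON libraries in 7 of the 35 (20%, against 16.9% of all tested genes) and below them in 9 (25.7%, against 14.1%). The share that lay above is near that of all genes. The median difference of the tested members was 0.049, against 0.031 over all tested genes, so the middle of the list lay close to that of all genes, with a few members far out on either side. The members that did not enter the test were Cebpb, Stc2 and Aldh1l2. The count of calls moved with single libraries: 3 members were higher and none lower without KO 2, and 7 higher and 3 lower without CON 1. At equal library medians 4 were higher and 6 lower. With total reads as library size 15 were higher, Atf4 (1.20, adjusted p = 0.0170) among them, and none lower, in a scaling where 28.9% of all tested genes were higher.

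**Figure D1:**
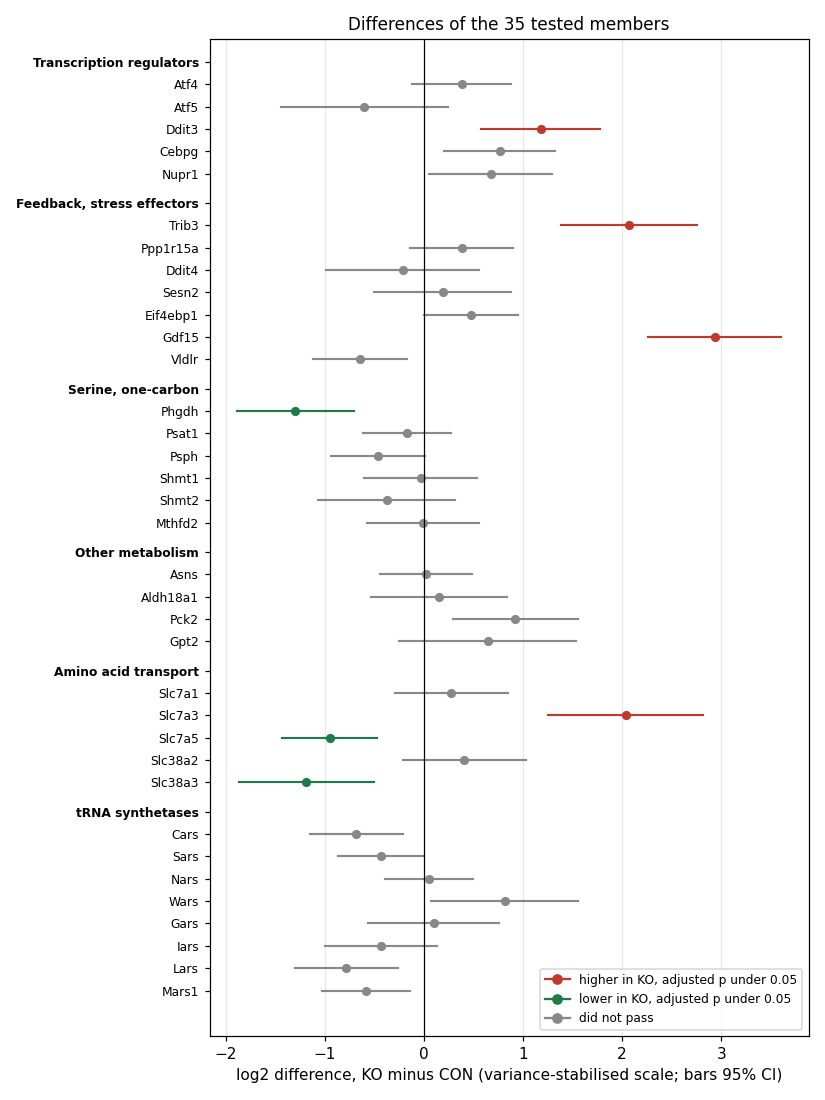
Difference KO minus CON on the variance-stabilised log2 scale (horizontal axis) for the 35 tested members, by subgroup, with 95% intervals from limma. Gdf15, Trib3 and Slc7a3 lie at 2 or more, Ddit3 at 1.18, and Phgdh, Slc38a3 and Slc7a5 at the low end, while the members in between did not pass the test.

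**Figure D2:**
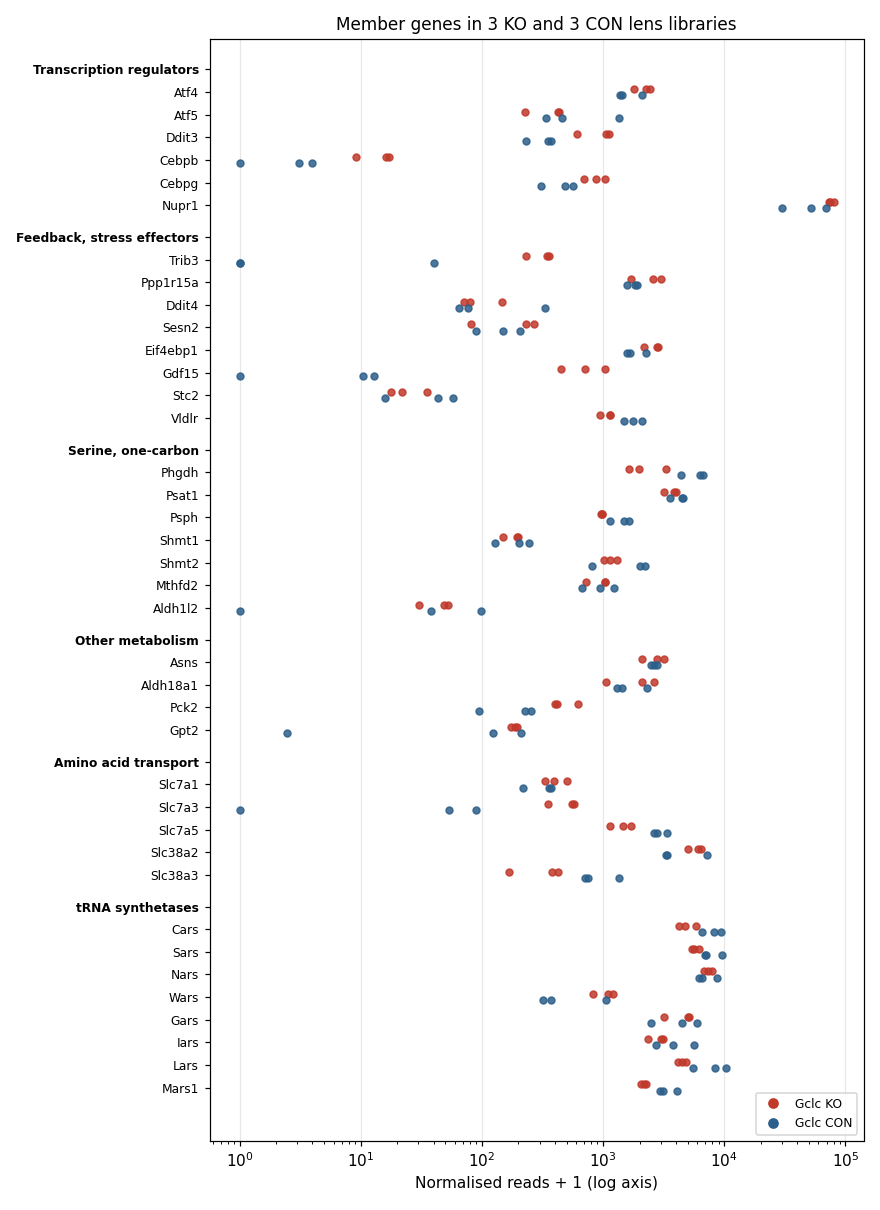
Normalised reads plus 1 (horizontal log axis) of all 38 members by subgroup; each point is 1 library, with the 3 KO libraries (red) drawn above the 3 CON libraries (blue) in each row. The KO points of Gdf15, Trib3 and Slc7a3 lie far to the right of the CON points, those of Phgdh, Slc7a5 and Slc38a3 to the left, and most other rows overlap.

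Among the 6 regulators, 1 rose, Ddit3 (Entrez 13198). It encodes CHOP, the bZIP factor that ATF4 induces and that promotes cell death when the stress lasts. Ddit3 had 606, 1057 and 1125 normalised reads in the 3 KO libraries, against 229, 368 and 353 in the CON libraries. The lowest KO value lay above the highest CON value. The means differed 2.94-fold, and the log2 difference was 1.18 (SE 0.27, adjusted p = 0.0177) with a 95% interval of 0.58 to 1.77. The call was lost without KO 2 (adjusted p = 0.0992) and without KO 3 (adjusted p = 0.0919). KO 1 was the lowest of the KO libraries, and KO 1 alone against CON, the comparison that remains when a term separates the 2 styles of library name, differed by 0.71 (adjusted p = 0.384). Here and below, KO 1 alone is a single library that the fit assumes to vary like the others, so its p-values rest on the spread within the other groups and neither support a call nor show its loss. Exons of Ddit3 and Mars1 overlap by 68 bases on opposite strands in the reference annotation, and the strand setting of the counting is not given in the sources used here. Such overlaps with genes on the opposite strand also touch Atf5 (82 bases, Nup62 and Il4i1), Shmt1 (184 bases, Smcr8), Shmt2 (32 bases, Ndufa4l2) and Aldh1l2 (1056 bases, D10Wsu102e), whose reads may be shared.

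Atf4 itself was abundant and did not pass the test. It had 1793, 2429.9 and 2282 normalised reads in the 3 KO libraries, against 1443, 1388 and 2090.0 in the CON libraries, and the lowest KO value lay below the highest CON value. The difference was 0.38 (SE 0.23, adjusted p = 0.323), with an interval of -0.12 to 0.88. Atf5, a related bZIP factor that is also controlled at translation, had 225, 425 and 431 normalised reads in the 3 KO libraries, against 1351, 456 and 336 in the CON libraries. CON 1 stood apart at 1351, and the groups overlapped (log2 difference -0.60, SE 0.39, adjusted p = 0.354). Cebpg, a C/EBP-family partner of ATF4, had 1036, 697 and 876 normalised reads in the 3 KO libraries, against 309, 482 and 563 in the CON libraries. All 3 KO libraries lay above all 3 CON libraries, but the difference of 0.76 had an adjusted p = 0.0795. Nupr1, a small nuclear protein induced by stress, had 73319.5, 75366 and 80241 normalised reads in the 3 KO libraries, against 30039.7, 52336 and 69241 in the CON libraries. Its groups did not overlap either, and its difference was 0.67 (SE 0.28, adjusted p = 0.157); with quantile normalisation it was 1.14 (adjusted p = 0.00242). Per kilobase of exon Nupr1 was the most abundant of all 38, with 92049 normalised reads per kilobase in KO and 60964 in CON, while Atf4 had 1257 in KO and 951 in CON. Cebpb, another partner of ATF4, was too low for the test, with 14, 27 and 29 raw reads in KO and 2, 0 and 2 in CON. The groups did not overlap in 3 of the 5 tested regulators, all higher in KO, against 16.9% of all tested genes, and the same number had an unadjusted p under 0.05, a level that 26.4% of all tested genes reached.

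Of the 8 feedback and stress effectors, Gdf15 and Trib3 rose and none fell. Gdf15 (Entrez 23886), a secreted cytokine of the TGF-beta family induced in stressed cells, had the largest log2 difference of the tested members. It had 1031, 445 and 716 normalised reads in the 3 KO libraries, against 9.50, 0 and 11.8 in the CON libraries, that is 1790, 740 and 1354 raw reads in KO and 9, 0 and 8 in CON. KO 1 was the highest library and every KO library lay far above every CON library. The log2 difference was 2.93 (SE 0.31, adjusted p = 0.000255), and the ratio of the means was 103-fold, resting on few CON reads. A count of 0 in CON 2 allows up to 9.44 normalised reads (3 reads), counting error only. Gdf15 kept its call without each library in turn, and KO 1 alone against CON differed by 3.40 (adjusted p = 0.00269).

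Trib3 (Entrez 228775), a pseudokinase induced by ATF4 and CHOP that restrains both, had 232, 341 and 360.5 normalised reads in the 3 KO libraries, against 39.1, 0 and 0 in the CON libraries. Behind these stood 402, 567 and 682 raw reads in KO and 37, 0 and 0 in CON, so CON 2 and CON 3 held none and CON 1 held 37. The ratio of the means was 23.9-fold and the log2 difference 2.07 (SE 0.31, adjusted p = 0.00213). It kept its call without each library in turn, and in KO 1 alone against CON the difference was 1.80 (adjusted p = 0.0789). With voom on the recovered reads and the same size factors, which does not shrink low counts in this way, the differences were 6.82 for Gdf15 (adjusted p = 0.0845) and 6.42 for Trib3 (adjusted p = 0.0694), larger in size and not past the threshold.

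Gdf15 and the sum of the macrophage markers had the same highest library, KO 1. It was the highest KO library for 41.7% of all tested genes. The summed level of 16 macrophage markers was 7040.2 to 21406 normalised reads in KO and 1983 to 3205 in CON. Relative to the highest library, the sum stood at 100%, 54.5% and 32.9% in KO 1 to 3, while Gdf15 stood at 100%, 43.2% and 69.4%. Trib3 stood at 64.2%, 94.6% and 100%, Ddit3 at 53.9%, 93.9% and 100%, and Slc7a3 at 61.9%, 100% and 97.3%, so these 3 were lowest in the KO library where the macrophage sum was highest. That library, KO 1, was the lowest KO library for 60.0% of the tested members and 38.6% of all tested genes. None of the 16 markers was at 0 in every library of a group. The part of macrophages in the difference of Gdf15 was not tested.

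**Figure D3:**
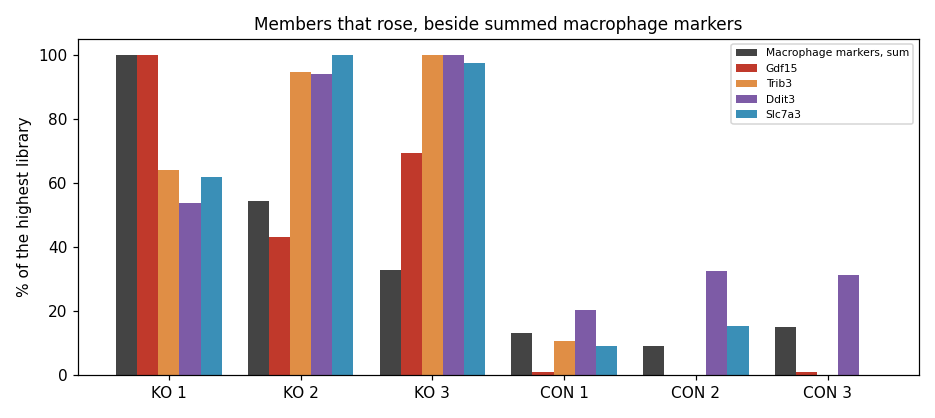
Level of Gdf15, Trib3, Ddit3, Slc7a3 and of the sum of 16 macrophage markers in each library, as a percentage of the highest library (vertical axis), with KO 1 to 3 left of CON 1 to 3. The macrophage sum and Gdf15 peak in KO 1, whereas Trib3, Ddit3 and Slc7a3 are lower in KO 1 than in KO 2 and KO 3.

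The other effectors did not pass the test. Ppp1r15a encodes GADD34, which brings a phosphatase to eIF2 and so ends the response, and averaged 2416 ± 665 normalised reads in KO and 1776 ± 174 in CON (SD, n = 3 each), a difference of 0.38 (SE 0.24, adjusted p = 0.342). Eif4ebp1, a repressor of cap-dependent translation, averaged 2609 ± 371 normalised reads in KO and 1838 ± 373 in CON, a difference of 0.47 (SE 0.22, adjusted p = 0.194). Its groups overlapped, as did those of Sesn2 and Ddit4, both inhibitors of mTORC1 signalling, at 0.19 (adjusted p = 0.752) and -0.22 (adjusted p = 0.749). Vldlr, a receptor for lipoproteins and reelin that ATF4 can induce, was the one effector whose KO libraries all lay below CON. It had 945, 1146 and 1143 normalised reads in the 3 KO libraries, against 2111, 1769 and 1496 in the CON libraries, with a difference of -0.64 (SE 0.22, adjusted p = 0.0795); at equal library medians it was called lower (-0.77, adjusted p = 0.0433). Stc2, a secreted glycoprotein, was too low for the test, with 59, 35 and 32 raw reads in KO and 14, 18 and 29 in CON, and its groups overlapped in normalised reads.

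Of the 7 serine and one-carbon enzymes, 1 fell, Phgdh, and none rose. All 6 tested had differences below 0 in the reported fit, and all 6 lay below the median gene of 0.86 with total reads as library size, where 5 of them were above 0. Phgdh (Entrez 236539) encodes phosphoglycerate dehydrogenase, the first and rate-limiting enzyme of serine synthesis. Phgdh had 3307, 1623 and 1968 normalised reads in the 3 KO libraries, against 6253, 6622 and 4382 in the CON libraries. The highest KO library, KO 1, lay below the lowest CON library, CON 3. The CON mean was 2.50 times the KO mean, and the log2 difference was -1.30 (SE 0.27, adjusted p = 0.0105), with an interval of -1.89 to -0.71. The call was lost without KO 2 (adjusted p = 0.0583), without CON 2 (adjusted p = 0.0503) and with total reads as library size (-0.50, adjusted p = 0.198, where the median gene stood at 0.86). KO 1 alone against CON differed by -0.75 (adjusted p = 0.319). The summed level of the 12 lens fibre markers was 6532912 to 9805736 normalised reads in KO and 18210442 to 25270239 in CON, none of them at 0 in a group, and its part in this difference and in those of the lower transporters was not tested.

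The 2 enzymes that follow Phgdh were called in neither direction in the reported fit. Psat1, the transaminase of the second step, had 4037, 3174 and 3848 normalised reads in the 3 KO libraries, against 4544, 3540.5 and 4471 in the CON libraries. The groups overlapped, with a difference of -0.17 (SE 0.20, adjusted p = 0.638) and an interval of -0.62 to 0.27. Under voom with total reads as library size Psat1 was called higher (0.62, adjusted p = 0.0487), though below the median gene of that scaling at 0.86. Psph, the phosphatase of the last step, had 965, 975 and 985 normalised reads in the 3 KO libraries, against 1136, 1646 and 1502 in the CON libraries. All KO libraries lay below all CON libraries, within a narrow band in KO, and the difference was -0.47 (SE 0.22, adjusted p = 0.198). Exons of Psph and Cct6a overlap by 452 bases on opposite strands in the reference annotation. In the folate cycle, Shmt2, the mitochondrial enzyme that splits serine into glycine and a one-carbon unit, averaged 1158 ± 144 normalised reads in KO and 1675 ± 757 in CON (SD, n = 3 each), a difference of -0.38 (SE 0.32, adjusted p = 0.494). Its cytosolic counterpart Shmt1 differed by -0.034 (adjusted p = 0.953) and Mthfd2, the mitochondrial dehydrogenase that carries the one-carbon unit onward, by -0.0081 (adjusted p = 0.988). Aldh1l2, a mitochondrial formyltetrahydrofolate dehydrogenase, was too low for the test, with 29.4, 51.7 and 47.6 normalised reads in the 3 KO libraries, against 98.2, 0 and 36.9 in the CON libraries. Per kilobase of exon, Phgdh was the highest of the subgroup in CON at 3039 normalised reads per kilobase, against 1215 in KO, while in KO Psat1 was higher at 1256.

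The 4 other metabolic enzymes gave no call in limma or in voom with size factors, and 1 of them, Pck2, had an unadjusted p under 0.05. Asns, asparagine synthetase and a standard target of ATF4, had 2091, 2783 and 3213 normalised reads in the 3 KO libraries, against 2765, 2615 and 2482 in the CON libraries. The levels overlapped, with a difference of 0.020 (SE 0.21, adjusted p = 0.968) and an interval of -0.45 to 0.49. Pck2, the mitochondrial form of phosphoenolpyruvate carboxykinase, had 403, 617 and 414 normalised reads in the 3 KO libraries, against 251, 227 and 92.9 in the CON libraries. Every KO value lay above every CON value, and the difference was 0.92 (SE 0.29, adjusted p = 0.0626). Without CON 1 it was 1.07 (adjusted p = 0.0383). Gpt2, the mitochondrial alanine transaminase, had 187, 193 and 172 normalised reads in the 3 KO libraries, against 210.1, 123 and 1.47 in the CON libraries, with CON 3 near 0 and a difference of 0.64 (SE 0.41, adjusted p = 0.349). Aldh18a1, which makes the precursor of proline, averaged 1933 ± 796 normalised reads in KO and 1671 ± 537 in CON (SD, n = 3 each), a difference of 0.15 (SE 0.31, adjusted p = 0.810).

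Among the 5 amino acid transporters 1 rose, Slc7a3, and 2 fell, Slc7a5 and Slc38a3. Slc7a3 (Entrez 11989) encodes CAT-3, a carrier of arginine and other cationic amino acids. It had 354, 572 and 557 normalised reads in the 3 KO libraries, against 52.8, 88.1 and 0 in the CON libraries, from 614, 951 and 1053 raw reads in KO and 50, 28 and 0 in CON. The groups were far apart, the ratio of the means was 10.5-fold and the log2 difference was 2.03 (SE 0.36, adjusted p = 0.00471). The call held without each library in turn. It was lost on the log2 scale of normalised reads plus 1 (4.84, adjusted p = 0.0664) and with voom and size factors (5.18, adjusted p = 0.0729), and KO 1 alone against CON differed by 1.70 (adjusted p = 0.136). Slc7a1, the related carrier CAT-1, averaged 408 ± 86.7 normalised reads in KO and 314 ± 84.6 in CON (SD, n = 3 each), a difference of 0.27 (SE 0.26, adjusted p = 0.556). Per kilobase of exon, Slc7a3 had 169.8 normalised reads in KO and 16.1 in CON, and Slc7a1 had 56.9 in KO and 43.8 in CON. Retina and pigment cell markers also stood higher in KO: 2 of 10 tested retina markers were called, with summed levels of 10901 to 12035 normalised reads in KO and 4257 to 7427 in CON, and 1 of 6 tested pigment markers, with 11468 to 18860.3 in KO and 8950.4 to 10995 in CON. Pou4f2, a retinal ganglion cell marker, was at 0 in every CON library and in KO 1. It had 38 and 21 raw reads in KO 2 and KO 3 and was too low for the test. Rpe65, of the pigment epithelium, was at 0 in all 6 libraries. The part of such cells in the difference of Slc7a3 was not tested.

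Slc7a5 (Entrez 20539) encodes LAT1, the carrier of leucine and other large neutral amino acids, which works as a dimer with the protein of Slc3a2. Slc7a5 had 1467, 1139 and 1712 normalised reads in the 3 KO libraries, against 3396, 2609 and 2782 in the CON libraries. The highest KO value lay below the lowest CON value, the CON mean was 2.03 times the KO mean, and the log2 difference was -0.95 (SE 0.22, adjusted p = 0.0171). The call was lost without KO 2 (adjusted p = 0.124) and with total reads (-0.22, adjusted p = 0.494), and KO 1 alone against CON differed by -0.91 (adjusted p = 0.218). Slc3a2, outside the list of 38, was lower as well, at 12558 ± 1616 normalised reads in KO and 20902 ± 2922 in CON (SD, n = 3 each), a difference of -0.72 (SE 0.20, adjusted p = 0.0399); with total reads it was 0.12, below the median gene of that scaling. Slc38a3 (Entrez 76257) encodes SNAT3, a glutamine carrier, and stands among the 8 lens epithelium markers used here. It had 167, 421 and 381 normalised reads in the 3 KO libraries, against 1345, 749 and 707 in the CON libraries. The difference was -1.19 (SE 0.31, adjusted p = 0.0308), and the CON mean was 2.89 times the KO mean. This call was the least stable of the 7: it was lost when any library other than CON 3 was left out, with adjusted p-values between 0.0513 and 0.104. Of the 7 epithelium markers tested, 2 were higher in KO (Pax6 and Aqp1) and 4 lower (Cdh1, Fgfr3, Pdgfra and Slc38a3). The summed level over the 8 was 26255 to 36420.2 normalised reads in KO and 18033 to 34727 in CON. Most of that sum was Gja1 (means 16470 in KO and 16647 in CON) and Pax6 (11085 in KO and 5863 in CON). The sum therefore does not show the 4 lower markers. Slc38a2, which encodes SNAT2, a carrier of small neutral amino acids that ATF4 induces, averaged 5818 ± 704 normalised reads in KO and 4635 ± 2269 in CON, a difference of 0.41 (SE 0.28, adjusted p = 0.402). Without CON 1 that difference was 0.77 (adjusted p = 0.0197).

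**Figure D4:**
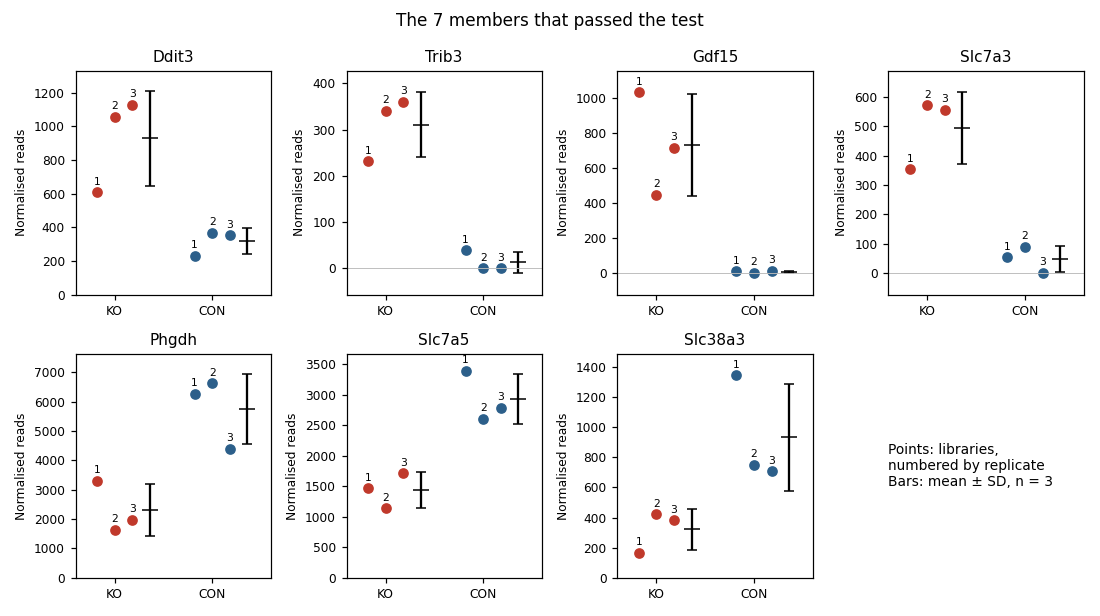
Normalised reads (vertical axis) of the 7 called members in each library, KO left of CON; points are libraries numbered by replicate, and the bar beside them is the mean ± SD (n = 3). The groups do not overlap in any of the 7, and Slc38a3 shows its widest gap within a group in CON, where CON 1 lies at 1345.

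None of the 8 tRNA synthetases passed limma's test, nor that of voom with size factors, and 4 had an unadjusted p under 0.05, Cars, Lars and Mars1 below CON and Wars above it. These enzymes load amino acids onto tRNAs in the cytosol. Cars, Sars, Lars and Mars1, which load cysteine, serine, leucine and methionine, had all 3 KO libraries below all 3 CON libraries, 4 of 8, against 14.1% of all tested genes. Among the 15 other cytosolic synthetases and partners counted further below, no gene had its KO libraries all below CON. Cars had 4713, 4262 and 5899.6 normalised reads in the 3 KO libraries, against 6549, 8201 and 9491 in the CON libraries. Lars had 4844, 4137 and 4488 normalised reads in the 3 KO libraries, against 8458, 5529 and 10266 in the CON libraries. Of these 2, Lars had the wider spread in CON, and its difference was -0.78 (SE 0.24, adjusted p = 0.0558); that of Cars was -0.68 (SE 0.21, adjusted p = 0.0643). Mars1 had 2196, 2039.7 and 2279 normalised reads in the 3 KO libraries, against 4048, 3128 and 2972 in the CON libraries, a difference of -0.59 (SE 0.20, adjusted p = 0.0861). Sars had 5399, 5594 and 6215 normalised reads in the 3 KO libraries, against 7121, 6968 and 9536 in the CON libraries, a difference of -0.43 (SE 0.20, adjusted p = 0.195). Cars and Lars crossed the threshold under a few alternatives: at equal library medians they differed by -0.81 (adjusted p = 0.0498) and -0.91 (adjusted p = 0.0332), Cars also without CON 1 (-0.82, adjusted p = 0.0199) and Lars without CON 2 (-1.03, adjusted p = 0.0224). With total reads Cars was at 0.14 and Mars1 at 0.19, under the median gene of that scaling at 0.86.

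The differences of the other synthetases ran both ways. Wars, which loads tryptophan and which interferon induces, had 824, 1088 and 1204 normalised reads in the 3 KO libraries, against 1052, 318 and 375 in the CON libraries. CON 1 lay among the KO values, and the difference was 0.81 (SE 0.34, adjusted p = 0.150); without CON 1 it was 1.23 (adjusted p = 0.00955). Nars, Gars and Iars load asparagine, glycine and isoleucine. Nars differed by 0.049 (adjusted p = 0.910), Gars by 0.097 (adjusted p = 0.880) and Iars by -0.44 (adjusted p = 0.313), all with overlapping groups. Per kilobase of exon, levels in KO ran from 362 normalised reads for Wars to 2498 for Nars, and in CON from 203 for Wars to 2508 for Cars. The median difference of the 8 was -0.44, against 0.031 over all tested genes.

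Genes of the same pathways outside the 38 were counted in 6 further lists. Of 18 tested other ATF4 targets, 6 rose and 3 fell. The rises included Atf3, a bZIP factor downstream of ATF4, at 1429 ± 225 normalised reads in KO and 66.2 ± 56.2 in CON (SD, n = 3 each), a log2 difference of 3.03 (SE 0.30, adjusted p = 0.000181), and Sqstm1, the autophagy receptor p62, at 33568 ± 9861 normalised reads in KO and 7895 ± 1117 in CON, a log2 difference of 2.03 (SE 0.25, adjusted p = 0.000595). Sqstm1 is also a known target of NRF2. The falls with the smallest p-values were Ndrg1, a stress and hypoxia gene (-1.35, SE 0.28, adjusted p = 0.00974), and Slc3a2. Chac1, which degrades glutathione and is an ATF4 target, rose by 2.39 (adjusted p = 0.00103), and Herpud1, a factor of protein degradation at the endoplasmic reticulum, by 1.14 (adjusted p = 0.00618). Both were chosen for mention after their values were seen, as was Slc7a11, the cystine carrier, which averaged 1296 ± 412 normalised reads in KO and 991 ± 317 in CON and did not pass the test (0.34, SE 0.28, adjusted p = 0.480).

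Of 80 genes of the further lists with a promoter entry, 12 (15.0%) held the core, against 4.51% of the genes in the table and 2.65% of the tested genes. Most of these 12, Slc7a11 among them, were not called, so holding the core did not go with a call. The promoters of Atf3, Chac1 and Herpud1 are shown because these are the called genes outside the 38 that hold the core, here in its narrower form. They can be set beside that of Trib3.
Atf3: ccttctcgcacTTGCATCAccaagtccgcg
Chac1: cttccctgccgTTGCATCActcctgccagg
Herpud1: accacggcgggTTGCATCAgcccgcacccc
They lie in GRCm38.p6 at chr1:191183425-191183454 (- strand), chr2:119351038-119351067 (+ strand) and chr8:94386306-94386335 (+ strand), before the start site in each case, and the core in capitals is read from the other strand.

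Upstream of ATF4, 15 genes for the eIF2 kinases, eIF2 and eIF2B were tested, and 1 was called, Eif2s2, the beta subunit of eIF2, which was lower in KO. It averaged 6303 ± 1300.0 normalised reads in KO and 11399 ± 1737 in CON (SD, n = 3 each), a difference of -0.84 (SE 0.22, adjusted p = 0.0284). Of 18 other serine and one-carbon genes, Sptlc2, a subunit of the enzyme that joins serine to a fatty acid, rose by 0.95 (adjusted p = 0.0158), Gldc, which cleaves glycine, rose by 0.82 (adjusted p = 0.0454) and Mthfd1l, a mitochondrial formate synthetase, differed by -0.85 (adjusted p = 0.0456). Of 17 other amino acid transporters, 3 rose and 2 fell. Slc6a6, the taurine carrier, averaged 17126 ± 4770.3 normalised reads in KO and 2857 ± 695 in CON, a log2 difference of 2.49 (SE 0.26, adjusted p = 0.000227), and Slc1a3, a glutamate carrier, 3147 ± 151 normalised reads in KO and 649.6 ± 144 in CON, a difference of 2.03 (SE 0.22, adjusted p = 0.000263). The third rise was Slc6a9, a glycine carrier (1.84, SE 0.44, adjusted p = 0.0214). Slc7a8, which encodes LAT2 and like LAT1 pairs with Slc3a2, was lower (-1.31, SE 0.32, adjusted p = 0.0219), beside Slc3a2. Slc3a2, Slc6a9 and Mthfd1l also stand among the other ATF4 targets.

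The other synthetase lists held few calls. Of 15 other cytosolic synthetases and partners none passed limma's test or voom's with size factors, and none had an unadjusted p under 0.05, and their median difference was -0.12. Among 17 mitochondrial synthetases, Lars2 fell (-0.88, SE 0.23, adjusted p = 0.0308). The share called was 50% of the 18 other ATF4 targets and 29.4% of the 17 transporters, against 11.3% of all tested genes. These lists were written with earlier results of these data known, so the shares describe the lists alone. Of the 18 other ATF4 targets, 1 passed the filter through KO alone. So did 3 of the 18 other serine and one-carbon genes, 1 of the 15 genes upstream of ATF4 and 1 of the 17 mitochondrial synthetases. In the other transporter and cytosolic synthetase lists the count was 0. Among the genes named from these lists, Atf3, Chac1, Herpud1, Sqstm1, Ndrg1, Slc6a6 and Slc1a3 kept their calls without each library in turn. Eif2s2, Sptlc2, Gldc, Mthfd1l, Slc3a2, Slc6a9, Slc7a8 and Lars2 lost theirs without KO 2, at adjusted p-values from 0.0714 for Slc7a8 to 0.206 for Slc3a2, and each also without 1 or more of the other libraries.

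**Figure D5:**
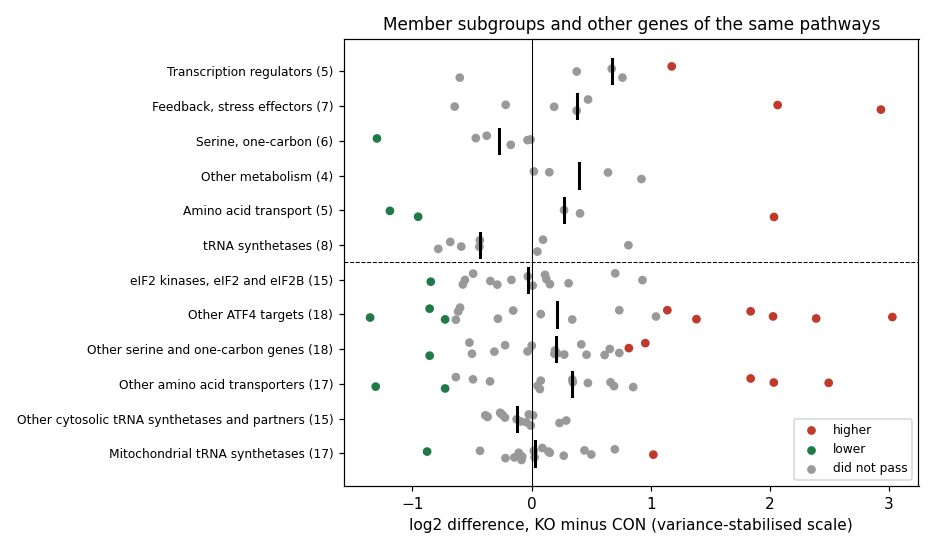
Log2 difference KO minus CON (horizontal axis) of each tested gene, in the 6 subgroups of the 38 and in the 6 further lists; coloured points passed the test, grey ones did not, and the thick tick gives the list's median. The cytosolic synthetases outside the list gather near 0 with none called, while other ATF4 targets spread from -1.35 to 3.03.

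Within the groups the libraries did not stand evenly over the members. KO 1 was the lowest KO library for 21 of the 35 tested members (60.0%, against 38.6% of all tested genes), and KO 3 was the highest for 18 (51.4%, against 30.4%). CON 1 was the highest CON library for 19 (54.3%, against 37.0%). KO 1 carries the same style of library name as the 3 CON libraries, and KO 2 and KO 3 carry another. A fit with a term for this style leaves KO 1 alone against CON. That fit cannot tell the style from other differences between KO 1 and the other KO libraries.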

How the data were processed

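RNA of whole P1 lenses was sequenced in 3 Gclc KO and 3 Gclc CON libraries. Per the submitters' processing notes, reads were handled with Trimmomatic, HISAT2 2.1.0, featureCounts 1.6.4 and DESeq2 (given as 2.11.0.6), with the build mm9. The authors deposited variance-stabilised log2 values for 27179 Entrez genes, with a lowest value of 6.504. Inverting the transformation gave reads whole within 0.1 in every library, and these were used for normalised reads and for voom. In each library genes with 2 reads outnumbered genes with 1, so both mates of a pair may have been counted, and intervals from reads cover counting error only. Names, exon lengths and promoters come from RefSeq and GENCODE for GRCm38.

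The comparison of KO with CON used limma 3.58.1 (R 4.3.3; lmFit, eBayes with trend) and the deposited log2 values of 11468 genes, those whose mean exceeded the lowest value by 1 unit or more, and the fit was tested on simulated data. Called members are named with all values. For further lists the up to 2 called genes with the smallest p in each direction are named, and others are marked as chosen after their values were seen, except where a count is 5 or fewer. The members, lists and tests were chosen with earlier results of these data known. Alternatives were other filters, scalings and fits, a replicate block, a term for the 2 styles of library name and each library left out. The labels give no pairing, and equal replicate numbers were not treated as pairs in the reported fit. A gene of the further lists is not reported here by name.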

Additional observations from a re-analysis of the deposited data

How the results depend on the processing

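Limits of the comparison are 3 libraries per group, a shallow CON 2 (20361430 reads, so that 3 reads stand for 9.44 normalised reads), an unknown strand setting and the choice of scale. The column name of CON 2 also ends in another code than those of all other libraries. What this code stands for is not stated in the labels. Of 583 values of members under the alternatives, 493 kept direction and side of the threshold, 22 passed it anew, 29 no longer passed it and 39 changed sign, among the last none that was called in the reported fit. A value that changed sign was counted as such on either side of the threshold. Psat1 under voom with total reads changed sign and also passed (0.62, adjusted p = 0.0487). Of 286 values of called genes in the further lists, 198 kept both, 87 no longer passed and 1 changed sign. The cause of these changes was not tested.

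Over all genes, 793 rose (6.91% of those tested) and 504 fell (4.39%) in the reported fit. Without a filter 360 fell (1.87% of more genes tested). A filter of 3 units, under which Ddit3, Trib3, Gdf15 and Slc7a3 were not tested, gave 340 rises, 462 falls (9.22% of fewer genes tested) and 0 members higher. Equal library medians gave 6 members lower, with Cars, Lars and Vldlr added. Voom with size factors gave 421 rises (3.67%) and 1 member higher, Ddit3. Voom with total reads gave 3314 rises (28.9%), 85 falls (0.741%), 15 members higher and 0 lower, in a scaling whose median gene stands at 0.86, against 0.031 in the reported fit, and voom with reads outside crystallins gave 292 falls (2.55%). The term for the style of library name, which leaves KO 1 as an arm of 1 library whose spread is taken from the others, gave 204 rises (1.78%), 39 falls (0.340%), 1 member higher, Gdf15, and 0 lower. With each library left out in turn, rises ranged from 3.11% to 9.46% and falls from 1.53% to 7.48% of the tested genes, with 3 to 7 members higher and 0 to 3 lower. The lowest shares came without KO 2 and the highest without CON 1, where Pck2, Slc38a2 and Wars rose too.

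Residuals of equal replicate numbers correlated at -0.364, -0.128 and -0.14. The labels give no pairing, and so few correlations cannot settle whether libraries were paired. With the replicate block 605 genes rose and 309 fell (2.69%), with 4 members higher and 2 lower, and Slc38a3 had an adjusted p = 0.0527.

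Sign changes, none of a called member, were as follows. For those under another scaling the median gene of that scaling is given beside them, and their cause was not tested. With total reads, where each of these lies below the median gene of 0.86, Ddit4 was 0.27, Vldlr 0.088, Psat1 0.62, Psph 0.32, Shmt1 0.86, Shmt2 0.48, Mthfd2 0.73, Cars 0.14, Sars 0.37, Iars 0.29, Mars1 0.19 and, outside the 38 and called, Slc3a2 0.12. At equal medians (median gene -0.094), Asns was -0.10, Nars -0.075 and Gars -0.028. Voom with size factors (median gene 0.033) put Shmt1 at 0.024, and reads outside crystallins (median gene 0.23) put Shmt1 at 0.24 and Mthfd2 at 0.095. Under the term for library names, Ppp1r15a was -0.062, Sesn2 -0.39, Shmt1 0.052, Asns -0.30, Aldh18a1 -0.54 and Gars -0.33. With 1 library left out in turn, the members whose sign changed ranged over -0.18 to 0.082 (Shmt1), -0.20 to 0.17 (Mthfd2), -0.45 to 0.19 (Ddit4), -0.11 to 0.18 (Asns), -0.096 to 0.49 (Aldh18a1), -0.041 to 0.20 (Nars) and -0.24 to 0.36 (Gars).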
